A study of Mus musculus with 6 samples.

Results

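The cornified layer genes described here are 10 mouse genes of late epidermal differentiation, Calm4, Krtdap, Lor, Lce1a1, Sbsn, Asprv1, Ivl, Tgm1, Sprr1a and Fam25c. They were taken by name from a deposited table of 23381 genes, and all 10 had a row in it. The names were chosen by their behaviour in these same libraries, with the RPKM values and the differences between the groups already known. Their values and group differences are therefore a description and carry no test. RPKM is the number of reads on a gene divided by its length in kilobases and by the size of its library.

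The libraries came from mammary tumours of Balb/c mice, 10 weeks old, that had received 500000 cells of the mouse mammary carcinoma line 4T1 in the inguinal mammary fat pad. In all groups the tumour cells were the same line, placed in mice of the same strain. The 3 control samples, called DMSO replicates 1 to 3, came from mice given the DMSO vehicle. The 3 samples called Vismodegib replicates 1 to 3 came from mice given Vismodegib, a small molecule inhibitor of the Hedgehog signal transducer Smoothened, at 2 mg per mouse. Both were given 3 times a week for 3 weeks once tumours had formed. A single tumour line limits the model, and whole tumours hold tumour cells together with the host tissue that was cut out with them. Whether every sample is a different mouse is not stated in the labels, and p-values therefore measure only the spread between these samples, which may be technical.

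The cornified layer is the outermost, dead layer of the epidermis and of other stratified epithelia. Late in their differentiation, after leaving the basal layer, keratinocytes replace their membrane with a cornified envelope. In it, precursors such as involucrin and loricrin are joined by transglutaminases into an insoluble shell coated with lipids. Many of the precursor genes lie side by side in the epidermal differentiation complex, a gene cluster on mouse chromosome 3. A mammary gland has a simple, non-cornifying epithelium, although mammary carcinomas can show squamous differentiation.

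The promoters of the members are shown first because members on different chromosomes share sequence features that their choice by name did not use. RefSeq promoter windows on GRCm38.p6, the build called mm10, were searched over the 250 bases before the start. All 10 members had a window, and 9 were searched. Tgm1, the only member with several windows, was left out because they reached beyond a set limit into the annotated gene. Members with a single window had no such limit, and that of Fam25c reached 40 bases into the gene. The motifs were the AP-1 site TGANTCA, the core CACCC bound by Krüppel-like factors, the Grainyhead-like site AACNGGTT and the TATA box TATAAA, each on both strands. The AP-1 letters were in the windows of 6 of the 9 members, Fam25c, Ivl, Krtdap, Lor, Sbsn and Sprr1a, against 6.75% of all 32851 windows of this length. TATAAA was in 5 of the 9, Fam25c, Ivl, Krtdap, Lor and Sprr1a, against 12.4% of all windows. In Fam25c these letters begin 29 bases before the RefSeq start. They lie among the last 40 bases of its window, which the GENCODE M21 annotation places in the gene. CACCC was in 7 of the 9 and in 52.0% of all windows, and the Grainyhead-like site was in 0 of the 9 and in 1.79% of all windows. None of these motifs contains another, and a match describes letters, not a bound site.

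Of these windows, 5 are printed 5′ to 3′ on the gene's strand, without bases that the GENCODE M21 annotation places in the gene, and with AP-1 and TATA letters in capitals. Lor and Krtdap were near 0 in most libraries, Ivl and Sprr1a were above 0 in every library, and Calm4 had the highest level. The Lor window is chr3:92083143-92083392 on the minus strand, that of Krtdap is chr7:30787655-30787895 on the plus strand and that of Ivl is chr3:92573736-92573985 on the minus strand. The Sprr1a window is chr3:92485896-92486131 on the minus strand and the Calm4 window is chr13:3837507-3837756 on the plus strand.
Lor: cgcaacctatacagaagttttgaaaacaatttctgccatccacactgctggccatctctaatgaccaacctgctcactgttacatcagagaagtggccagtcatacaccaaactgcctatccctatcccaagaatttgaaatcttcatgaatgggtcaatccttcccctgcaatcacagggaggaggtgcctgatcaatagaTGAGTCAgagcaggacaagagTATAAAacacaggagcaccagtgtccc
Krtdap: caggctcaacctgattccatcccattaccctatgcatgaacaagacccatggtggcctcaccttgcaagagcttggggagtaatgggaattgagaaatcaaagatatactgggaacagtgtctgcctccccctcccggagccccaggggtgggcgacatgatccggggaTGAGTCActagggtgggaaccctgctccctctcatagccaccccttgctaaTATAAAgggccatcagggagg
Ivl: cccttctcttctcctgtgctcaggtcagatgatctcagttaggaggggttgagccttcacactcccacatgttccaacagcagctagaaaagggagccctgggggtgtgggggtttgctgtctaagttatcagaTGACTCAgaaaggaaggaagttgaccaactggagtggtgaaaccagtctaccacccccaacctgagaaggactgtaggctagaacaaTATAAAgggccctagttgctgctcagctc
Sprr1a: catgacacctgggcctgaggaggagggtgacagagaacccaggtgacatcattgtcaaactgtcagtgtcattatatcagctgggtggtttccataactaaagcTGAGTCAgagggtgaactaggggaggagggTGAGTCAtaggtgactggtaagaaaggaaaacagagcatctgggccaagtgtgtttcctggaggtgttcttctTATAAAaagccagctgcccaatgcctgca
Calm4: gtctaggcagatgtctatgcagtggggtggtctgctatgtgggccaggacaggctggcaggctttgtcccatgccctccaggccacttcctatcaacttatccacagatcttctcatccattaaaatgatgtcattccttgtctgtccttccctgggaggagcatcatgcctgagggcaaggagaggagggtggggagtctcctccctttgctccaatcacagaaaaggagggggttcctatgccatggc
In Lor the AP-1 letters begin 48 bases before the RefSeq start and the TATA letters 27 bases before it. In Krtdap these distances are 81 and 30 bases, and in Ivl 116 and 29 bases. Sprr1a has AP-1 letters at 146 and at 116 bases and TATA letters at 43 bases. All distances are counted from the RefSeq start, and the printed windows of Krtdap and Sprr1a end 9 and 14 bases short of it. The Calm4 window holds neither, and Lce1a1 also holds none of the 4 motifs.

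Before the members' values, 1 library has to be described. Vismodegib replicate 3 stood apart from the others in more than cornified genes. Of 55 genes of small intestine in the table, from a list written after the values were seen, 47 were highest in Vismodegib replicate 3, and in 42 of those 47 the next library was DMSO replicate 2. Apoa4, an apolipoprotein of intestinal chylomicrons, was at 23.6 RPKM in Vismodegib replicate 3, at 5.52 RPKM in DMSO replicate 2 and below 0.31 RPKM in the 4 remaining libraries. Fabp2, the intestinal fatty acid binding protein, was at 8.27 and 1.49 RPKM in those libraries and never above 0.102 RPKM elsewhere. Among all 23381 genes, 14.3% had their highest value in Vismodegib replicate 3, and 0.569% (133 genes) were there at 0.5 RPKM or more and at 3 times every other library. These shares are the background for the counts below. The part of this library's make-up in the results was not tested. The libraries hold an estimated 34843300 to 57993600 reads, the deepest being Vismodegib replicate 3.

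The members fell into 3 patterns. Calm4, Krtdap, Lor, Lce1a1, Sbsn and Asprv1 were highest in Vismodegib replicate 3 and next highest in DMSO replicate 3. Sprr1a and Fam25c were highest in Vismodegib replicate 3 with another library second. Ivl and Tgm1 were highest in Vismodegib replicate 1 and were above 0.29 RPKM in every library. Thus 8 of the 10 were highest in Vismodegib replicate 3, against 14.3% of all genes, and 5 of the 10 were there at 3 times every other library, against 0.569%. The choice of the members used these values, so nothing is read from those shares. The members' summed RPKM was 4.60, 11.5 and 18.1 under DMSO and 17.2, 10.9 and 204.9 under Vismodegib, in the order of replicates 1, 2 and 3. Calm4 alone gave 95.02 RPKM of the last sum.

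**Figure D1:**
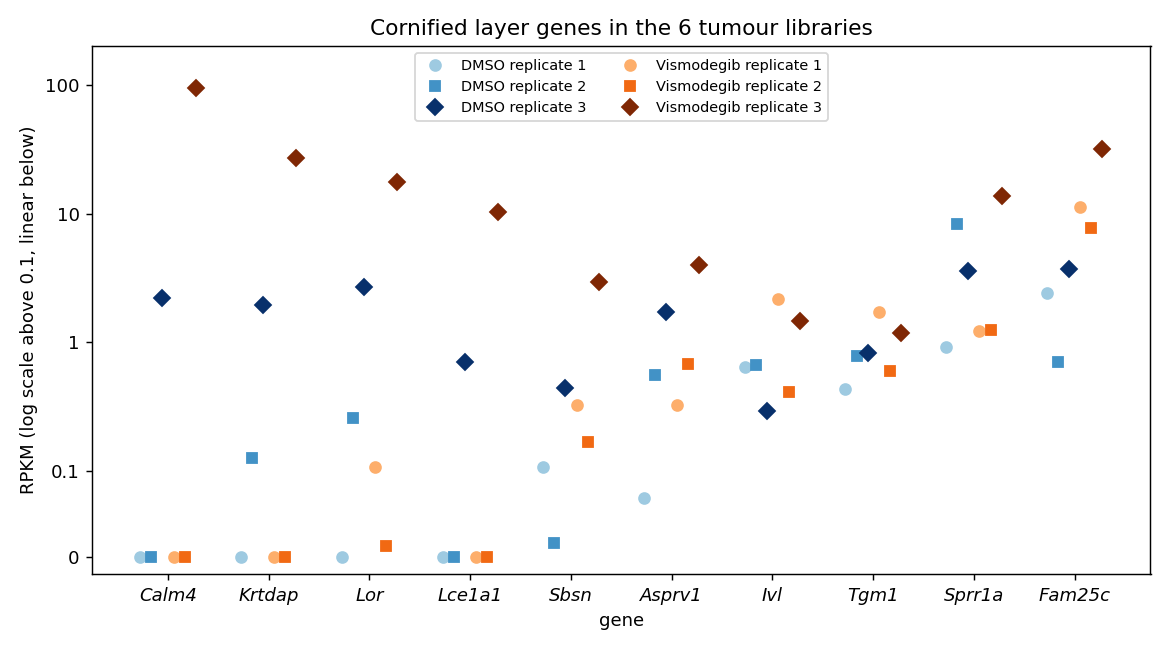
RPKM of the 10 genes (vertical axis, logarithmic above 0.1 and linear below) in the 3 DMSO libraries (blue) and the 3 Vismodegib libraries (orange and brown), 1 point per library. Dark diamonds mark the third replicate of each group: in the first 6 genes from the left these are the highest 2 points, from 95.02 RPKM down to 0.439 RPKM.

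Calm4 encodes a calmodulin-like calcium-binding protein of epidermal keratinocytes (ENSMUSG00000033765.5, chr13:3837757-3838673, plus strand, 1 exon). It was listed at 0 in DMSO replicates 1 and 2 and in Vismodegib replicates 1 and 2, with 2.21 RPKM in DMSO replicate 3 and 95.02 RPKM in Vismodegib replicate 3. The last 2 values rest on an estimated 82.0 and 5053 reads. In Vismodegib replicate 3 Calm4 lay above 97.1% of the genes with a value above 0. Reads on Calm4 were found in 1 library of each group, and the value in Vismodegib replicate 3 was 43.0 times that in DMSO replicate 3. For the transcript length of 917 bases, 3 reads correspond to 0.0564 to 0.0939 RPKM, so that lower levels were not detectable at this depth, for counting error alone.

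The secreted proteins of the upper epidermis followed the same libraries. Krtdap, the keratinocyte differentiation associated protein (ENSMUSG00000074199.7, chr7:30787896-30791097, plus strand), was listed at 0 in DMSO replicate 1 and Vismodegib replicates 1 and 2. DMSO replicates 2 and 3 had 0.127 and 1.97 RPKM of Krtdap, and Vismodegib replicate 3 had 27.2 RPKM. Sbsn, suprabasin (ENSMUSG00000046056.15, chr7:30751471-30756134, plus strand), had levels of 0.108, 0.0162 and 0.439 RPKM under DMSO and 0.325, 0.169 and 2.95 RPKM under Vismodegib, here and below in the order of replicates 1, 2 and 3. Both genes thus had overlapping groups, with 1 high Vismodegib library and the other 2 within the range of DMSO. Tmem147os overlaps Sbsn on the same strand, and its own values, 0.375 to 0.683 RPKM, were lowest in DMSO replicate 3. Krtdap and Sbsn lie 31.8 kb apart, and the only other gene of the table between them is Dmkn, dermokine, a further secreted protein of the upper epidermis. Dmkn had levels of 0, 0.0524 and 0.778 RPKM under DMSO and 0.0986, 0.0427 and 9.83 RPKM under Vismodegib, the same order as the pattern averaged over the members.

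The envelope proteins split between those patterns. Lor encodes loricrin, the main envelope protein of the epidermis by mass (ENSMUSG00000043165.7, chr3:92080271-92083142, minus strand, 2 exons). It had levels of 0, 0.258 and 2.70 RPKM under DMSO and 0.108, 0.0132 and 17.6 RPKM under Vismodegib, on an estimated 194.0 reads in DMSO replicate 3 and 1818 reads in Vismodegib replicate 3. Lce1a1 encodes a late cornified envelope protein (ENSMUSG00000057609.6, chr3:92646535-92648307, minus strand, 2 exons). It was listed at 0 in all libraries but DMSO replicate 3, at 0.701 RPKM, and Vismodegib replicate 3, at 10.3 RPKM. In both genes the third replicate of each group stood above 0.26 RPKM, and the other 4 libraries did not.
Sprr1a encodes a small proline-rich envelope protein that is also induced in stressed and injured epithelia (ENSMUSG00000050359.7, chr3:92483952-92485895, minus strand, 2 exons). It had levels of 0.928, 8.37 and 3.56 RPKM under DMSO and 1.22, 1.25 and 13.8 RPKM under Vismodegib. It was above 0 in all 6 libraries, and DMSO replicate 2 was second. Ivl encodes involucrin, an early scaffold of the envelope (ENSMUSG00000049128.7, chr3:92570902-92573735, minus strand, 2 exons). It had levels of 0.639, 0.672 and 0.296 RPKM under DMSO and 2.16, 0.414 and 1.46 RPKM under Vismodegib. DMSO replicate 3, second for Lor and Lce1a1, was the lowest library for Ivl.

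The enzymes of the layer were at most 3.97 RPKM and differed in their spread. Tgm1 encodes transglutaminase 1, the membrane-bound enzyme that crosslinks envelope proteins (ENSMUSG00000022218.16, chr14:55700009-55713926, minus strand, 15 exons). It had levels of 0.431, 0.790 and 0.821 RPKM under DMSO and 1.71, 0.600 and 1.18 RPKM under Vismodegib, the narrowest spread of the 10 (SD 0.44 over the 6 log2 values). Asprv1 encodes a retroviral-like aspartic protease that processes profilaggrin (ENSMUSG00000033508.7, chr6:86628164-86629710, plus strand, 1 exon). It had levels of 0.0690, 0.557 and 1.71 RPKM under DMSO and 0.326, 0.681 and 3.97 RPKM under Vismodegib, above 0 in every library. Its value in Vismodegib replicate 3 was 2.32 times that in DMSO replicate 3, against 13.8 times for Krtdap, 6.54 times for Lor and 14.7 times for Lce1a1. The annotation places an antisense gene over Tgm1, and the use of strand in counting is not given in the sources used here.

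Fam25c was the member whose groups did not overlap, 1 of 10 against 4.29% of the 11818 genes tested that were higher in every Vismodegib library. It encodes a small protein of little known function (ENSMUSG00000043681.5, chr14:34351881-34355433, minus strand, 3 exons). Fam25c had levels of 2.42, 0.703 and 3.70 RPKM under DMSO and 11.3, 7.74 and 31.4 RPKM under Vismodegib, on an estimated 10.0 to 744.0 reads. Vismodegib replicate 3 held the highest value of Fam25c, so leaving that library out could not make the groups overlap.

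**Figure D2:**
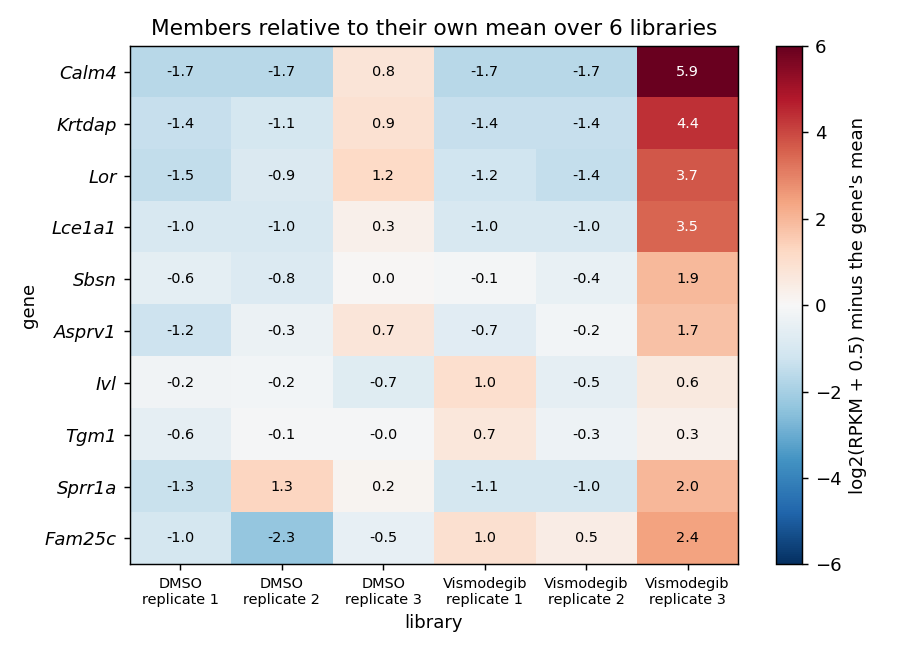
Each gene's log2(RPKM + 0.5) minus its mean over the 6 libraries (colour and printed value), for the 10 genes (rows) and the libraries (columns). Vismodegib replicate 3 is above the mean in all 10 rows, DMSO replicate 3 is next in the first 6 rows, and Fam25c is above its mean in all 3 Vismodegib libraries.

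Between the groups, 9 of the 10 members had a mean difference above 0 on log2(RPKM + 0.5), Vismodegib minus DMSO, with a median of 0.82. Over all 11818 genes tested the median was 0.05 and 58.4% were above 0. Only genes averaging 0.5 RPKM or more entered the test, and all 10 members did, 4 of them only through Vismodegib replicate 3. The differences were 1.71 for Calm4, 1.05 for Krtdap, 0.74 for Lor and 1.06 for Lce1a1. They were 0.90 for Sbsn, 0.57 for Asprv1, 0.72 for Ivl, 0.45 for Tgm1, -0.08 for Sprr1a and 2.57 for Fam25c. Without Vismodegib replicate 3 the median was -0.29 and 4 of the 10 were above 0. Of the 6 members that reached the mean of 0.5 RPKM without it, 3 were then above 0 and 3 below, with a median of 0.13. Calm4, Krtdap, Lor and Lce1a1 then stood at -0.81, -0.88, -0.93 and -0.42, and Fam25c at 2.01, Ivl at 0.61, Tgm1 at 0.42 and Sbsn at 0.16. With the third replicate of both groups left out, an alternative chosen after seeing the data, the median was 0.17. The direction of most members thus followed single libraries. As group means, Calm4 averaged 0.737 ± 1.28 RPKM under DMSO and 31.7 ± 54.9 RPKM under Vismodegib (SD, n = 3), Fam25c 2.27 ± 1.502 and 16.8 ± 12.8 RPKM, and Ivl 0.536 ± 0.208 and 1.35 ± 0.880 RPKM. In bulk tumours, more cells of a type and more RNA per cell cannot be told apart.

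The other genes of cornification were read from lists drawn up from textbook knowledge, but with earlier results of these data known. Of 141 such genes in the table, 75 were tested, with 58 differences above 0, 17 below and a median of 0.32. Over all genes tested 58.4% were above 0. Of these 75, 18 reached the mean of 0.5 RPKM only through Vismodegib replicate 3, and so had to be high there. Of the 57 genes that reached it without that library, 36 were above 0 and 21 below when it was left out, with a median of 0.16. Over all 11839 genes that did so, 7688 were above 0 and 4151 below, with a median of 0.11. By limma's test with Benjamini-Hochberg adjustment 0 passed in either direction, as for all 11818 genes (0, or 0%), and 4 of the 75 had an unadjusted p under 0.05, against 2.25% of all genes tested. By their highest library, 80 of the 141 (56.7%) were highest in Vismodegib replicate 3, against 14.3% of all genes and 15.7% of the 11563 genes with a mean under 0.5 RPKM. This way of counting was chosen after the values were seen. Of the 133 genes at 3 times every other library there, 38 (28.6%) were on these lists, which is 27.0% of the lists' genes.

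Envelope precursors and the keratins of the suprabasal layers had the highest share of genes with their highest value in Vismodegib replicate 3 among the 6 lists. They numbered 39 of 47, the members left out. Of 15 tested, 15 were above 0, but 9 of these reached the mean of 0.5 RPKM only through that library. Without it 2 of the other 6 were above 0 and 4 below. Their summed RPKM there was 112.8, against 5.39 to 12.8 in the other 5 libraries. Krt10, the keratin of the suprabasal epidermis, had levels of 0.998, 1.78 and 2.90 RPKM under DMSO and 1.93, 1.44 and 10.04 RPKM under Vismodegib (log2 difference 0.70, 95% interval -0.69 to 2.09). Krt77, another suprabasal keratin, reached 2.66 RPKM in DMSO replicate 3 and 6.89 RPKM in Vismodegib replicate 3, and did not exceed 0.0820 RPKM elsewhere. Evpl, envoplakin, which anchors the envelope to the cytoskeleton, was at 1.13 to 1.40 RPKM in DMSO and 0.964 to 2.49 RPKM in Vismodegib. Its highest value was also in Vismodegib replicate 3. The large filaggrin-type genes Flg, Hrnr and Flg2 of the same list were lower in Vismodegib replicate 3 than Lor and the Lce1 genes. They too had their highest value in that library. Flg, filaggrin, was there at 0.136 RPKM and at most at 0.00510 RPKM elsewhere. Hrnr, hornerin, was at 0.0863 RPKM and 0 elsewhere, and Flg2 at 0.00663 RPKM and at most 0.00119 RPKM elsewhere.

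All 14 Lce1 genes of the table were highest in Vismodegib replicate 3, where they summed to 59.9 RPKM and all 14 were above 0. In DMSO replicate 3, 9 of them were above 0 and summed to 1.40 RPKM, and the other 4 libraries had sums of 0 to 0.699 RPKM. Lce1f, at 17.3 RPKM in Vismodegib replicate 3, was above Lce1a1 there, but at 0.0679 RPKM in DMSO replicate 3 below it. The 6 Lce3 genes, which are induced in wounded and inflamed epidermis, summed to 8.14 RPKM in Vismodegib replicate 3 and to at most 0.0424 RPKM in any other library, with 0 in DMSO replicate 3. Sprr2 genes summed to 25.0 RPKM in Vismodegib replicate 3 and to 0.782 to 2.53 RPKM in the others. Lce1 and Sprr2 genes are close copies of one another, so the division of reads between them is uncertain.

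Among 19 secreted and other late genes besides the members, 13 were highest in Vismodegib replicate 3, and 8 were there at 3 times every other library. Of 9 tested, 7 were above 0, with a median of 0.42, but 4 of the 9 reached the mean of 0.5 RPKM only through that library. Without it 5 of the 9 were above 0 and 4 below, with a median of 0.02. Of the 5 genes that reached that mean without it, 4 were then above 0 and 1 below, with a median of 0.16. Ly6d, a surface protein of stratified epithelia, had levels of 12.3, 53.2 and 14.8 RPKM under DMSO and 25.4, 11.2 and 71.3 RPKM under Vismodegib, with the same 2 highest libraries as the intestinal genes. Stfa2, a stefin, was instead highest in DMSO replicate 3, at 10.4 RPKM, and at 2.12 RPKM in Vismodegib replicate 3.

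Of 7 keratins of stressed and rapidly dividing keratinocytes, 5 were highest in Vismodegib replicate 3, Krt6a, Krt6b, Krt16, Krt17 and Krt79. The exceptions were Krt13, highest in Vismodegib replicate 2 at 0.964 RPKM against 0.748 RPKM in replicate 3, and Krt75, listed at 0 there. Krt16 reached 20.1 RPKM in Vismodegib replicate 3, next to 1.05 and 0.948 RPKM in DMSO replicates 2 and 3. Krt6a was at 8.91 RPKM and Krt6b at 5.17 RPKM in Vismodegib replicate 3. Elsewhere Krt6a was at most 0.0920 RPKM and Krt6b was listed at 0. Krt17, which basal and myoepithelial cells of the breast also make, had levels of 2.51, 27.6 and 6.41 RPKM under DMSO and 7.98, 12.1 and 36.7 RPKM under Vismodegib.

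The enzymes and regulators were highest in Vismodegib replicate 3 less often than the envelope precursors. Of 16 crosslinking and processing genes other than the members, 8 (50%) were highest there, against 14.3% of all genes, and 8 were highest in another library. Klk7 was at 2.10 RPKM in Vismodegib replicate 3 and at most 0.117 RPKM elsewhere, and Casp14 at 0.475 RPKM there and 0 elsewhere. St14, matriptase, a protease needed for terminal differentiation, had levels of 23.9, 28.8 and 31.4 RPKM under DMSO and 33.4, 36.3 and 38.6 RPKM under Vismodegib, without overlap (log2 difference 0.37, 95% interval -0.18 to 0.91, limma). Klk8, a serine protease of the upper epidermis, had levels of 4.39, 7.81 and 22.5 RPKM under DMSO and 9.41, 4.18 and 5.69 RPKM under Vismodegib, highest in DMSO replicate 3. Prss8, prostasin, which acts with matriptase, was at 23.9 ± 8.82 and 26.8 ± 7.63 RPKM, and Blmh, a filaggrin-degrading hydrolase, at 43.5 ± 22.6 and 48.5 ± 10.9 RPKM (DMSO and Vismodegib, SD, n = 3). Barrier lipid genes had a median difference of -0.07 over 8 tested, 3 above 0 and 5 below. Of all 20 in the table, 8 (40%) were highest in Vismodegib replicate 3. The summed level of the 20 in that library, 73.3 RPKM, lay within the 61.3 to 80.0 RPKM of DMSO. Elovl1, a fatty acid elongase, had a log2 difference of -0.29 (95% interval -1.15 to 0.58). Abca12, the transporter that loads lamellar bodies with lipid, was at most 0.0268 RPKM in any library.

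Among 32 regulators of keratinocyte differentiation, 7 were highest in Vismodegib replicate 3, which is 21.9% against the 14.3% of all genes. Of 27 tested, 21 were above 0 with a median of 0.31, against 58.4% of all genes tested. Of the same 27 without that library 21 were above 0 as well, against 7673 of the 11818 genes tested. Elf3, Tfap2c, Notch3 and Barx2, 4 of the 27, had an unadjusted p under 0.05, against 2.25% of all genes. Elf3, an epithelial transcription factor, had levels of 34.4, 8.34 and 17.3 RPKM under DMSO and 72.9, 43.7 and 53.4 RPKM under Vismodegib, without overlap. Its log2 difference of 1.66 had a 95% interval of 0.59 to 2.73 and did not pass adjustment over all genes (adjusted p = 1, limma). Tfap2c, an AP-2 factor of epidermis and mammary gland, had levels of 0.827, 0.530 and 0.289 RPKM under DMSO and 1.21, 1.30 and 2.02 RPKM under Vismodegib, likewise without overlap. Notch3, a receptor of the Notch pathway, went from 0.387 to 0.805 RPKM under DMSO and from 0.971 to 1.57 RPKM under Vismodegib. Gata3, a luminal and epidermal transcription factor, averaged 63.9 ± 41.8 RPKM under DMSO and 41.4 ± 20.5 RPKM under Vismodegib (SD, n = 3), and its lowest Vismodegib library, 17.8 RPKM, was replicate 3. The 7 regulators highest in Vismodegib replicate 3 were Trp63, Grhl1, Zfp750, Cebpa, Notch3, Tfap2c and Sfn. Grhl1, a Grainyhead-like factor, was there at 1.53 RPKM and at most at 0.598 RPKM elsewhere, and Zfp750, a regulator of terminal differentiation, at 0.998 and at most 0.401 RPKM. Klf4, which drives barrier formation, was instead lowest there, at 0.973 RPKM.

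**Figure D3:**
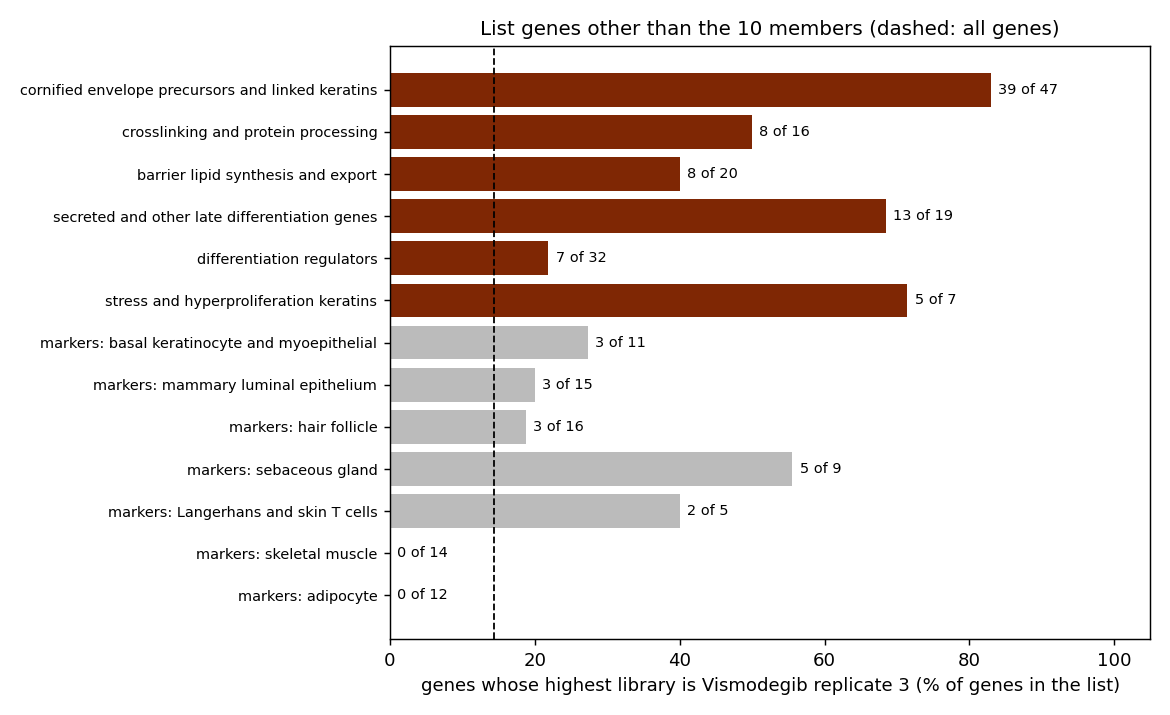
Share of the genes in each list, the 10 members left out, whose highest library was Vismodegib replicate 3 (bars, % of the list's genes in the table, with counts), for cornification lists (brown) and marker lists of other cell types (grey). The dashed line is the share of all genes, 14.3%. The precursor and keratin list reaches 39 of 47 genes. Among the marker lists, the sebaceous list reaches 5 of 9, and the muscle and adipocyte lists reach 0 of 14 and 0 of 12.

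Markers of the other cells of skin and fat pad were set beside the members in the same libraries. The basal keratin Krt14 was abundant in every library, at 67.2, 98.6 and 141 RPKM under DMSO and 127.7, 200.1 and 172.9 RPKM under Vismodegib, and Krt5 was highest in DMSO replicate 2, at 9.31 RPKM, and Vismodegib replicate 3, at 9.32 RPKM. The 11 basal and myoepithelial markers summed to 111.8 to 198.5 RPKM in DMSO and 208.2 to 286.6 RPKM in Vismodegib, and 3 of the 11 were highest in Vismodegib replicate 3. Mammary luminal markers summed to 1849 to 3102 RPKM in DMSO and 2843 to 3015 RPKM in Vismodegib, lowest of that group in replicate 3.
Of 16 hair follicle markers, 3 were highest in Vismodegib replicate 3, the hair keratin gene Krt83 at 1.23 RPKM, Lgr5 at 0.153 RPKM and Tchh at 0.136 RPKM. The inner root sheath keratins Krt25, Krt27, Krt28, Krt71, Krt72 and Krt73 were at 0 there and at most 0.0845 RPKM in any library, and the list summed to 1.13 to 3.47 RPKM in DMSO and 3.10 to 5.74 RPKM in Vismodegib. Of 9 sebaceous markers in the table, 5 (55.6%) were highest in Vismodegib replicate 3. Sebaceous markers summed to 5.04 to 9.62 and 6.77 to 10.5 RPKM, with 0.434 RPKM of Awat1 in Vismodegib replicate 3 and 0 elsewhere. Cd207, which marks Langerhans cells, reached 0.193 RPKM in Vismodegib replicate 3 and 0.0154 RPKM in Vismodegib replicate 2, and was listed at 0 in the others. Of the melanocyte list only Pmel had a row, at 0.115 to 0.268 RPKM. Adipocyte markers summed to 109.8, 88.4 and 16.4 RPKM in Vismodegib replicates 1, 2 and 3, against 17.1 to 22.2 RPKM in DMSO. The part of any of these cells in the members' values was not tested.

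The members were chosen by name and not by position, but many envelope precursor genes are known to lie in the epidermal differentiation complex. Lor, Sprr1a, Ivl and Lce1a1 lie within 568 kb on chromosome 3, on the same strand. The stretch from S100a1 to S100a11 that holds the epidermal differentiation complex (chr3:90511034-93526287, mm10) has 69 genes in the table, these 4 included. Of the other 65, 38 (58.5%) were highest in Vismodegib replicate 3, and 22 were there at 3 times every other library and at 0.5 RPKM or more. Many of these genes, among them the Lce1, Lce3 and Sprr2 genes, are also on the cornification lists, so this count repeats part of the lists' count. The S100 genes that flank the complex did not share this: 1 of 13 was highest there, against 37 of the remaining 52. S100a6, a calcium-binding protein abundant in carcinoma cells, had levels of 5040, 9093 and 7486 RPKM under DMSO and 4513, 6231 and 6047 RPKM under Vismodegib. S100a14, S100a16, S100a4 and S100a11 were likewise at 88.5 to 1964 RPKM in all libraries, and S100a16 was the one with its highest value, 758.7 RPKM, in Vismodegib replicate 3. Of 26 non-members of this stretch that were tested, 0 passed limma's test.

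**Figure D4:**
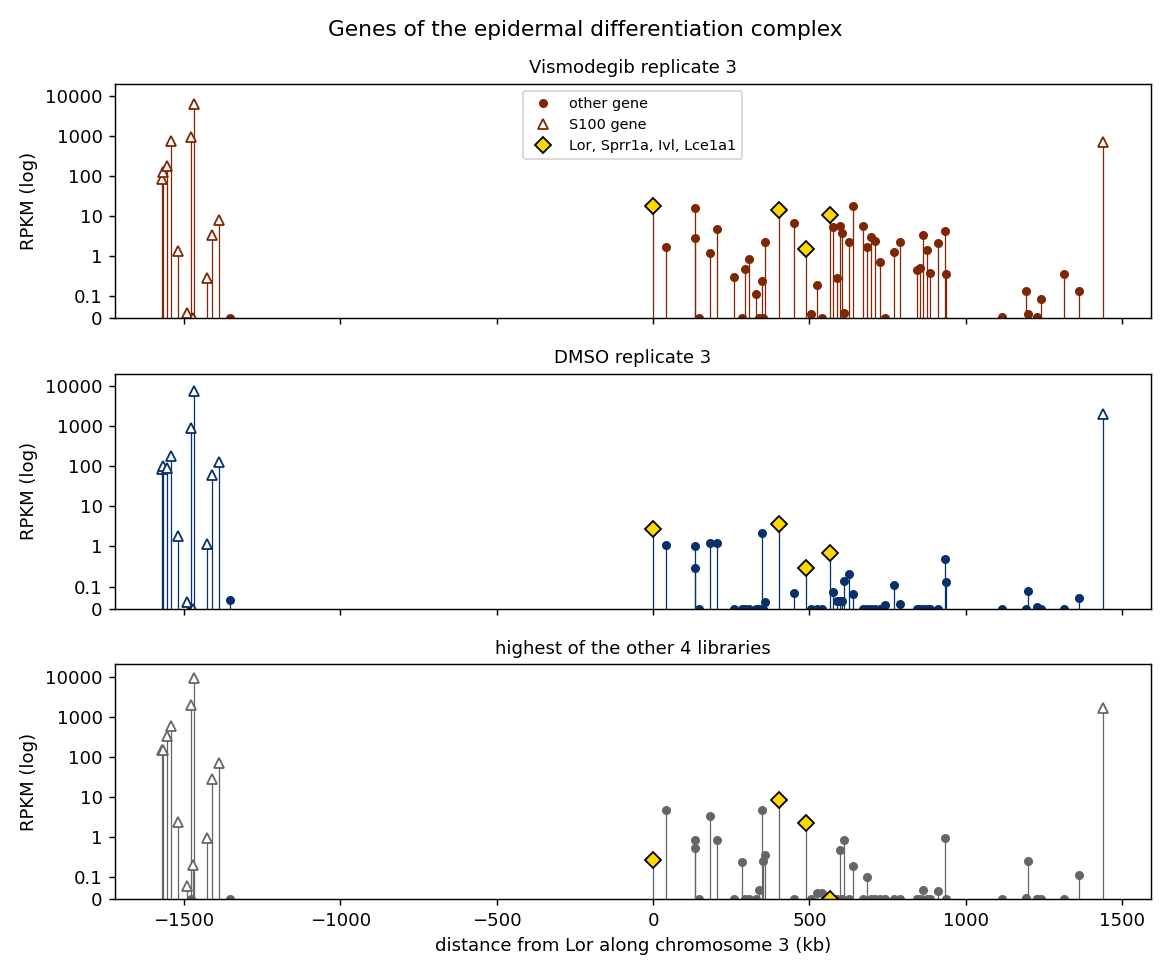
RPKM (vertical axis, logarithmic above 0.1) of the genes of the epidermal differentiation complex against their distance from Lor in kb, in Vismodegib replicate 3 (top), DMSO replicate 3 (middle) and as the highest of the other 4 libraries (bottom). Of the genes other than the members, 37 of the 52 that are no S100 gene were highest in the library of the top panel, against 1 of the 13 S100 genes (triangles).

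The genes most like the members were found by Pearson's r with the mean of the members' centred log2 values over the 6 libraries, among 387 genes with an SD of at least 1 on that scale. They were Dmkn (r = 0.996), Nccrp1 (0.986), Krt1 (0.984), Cnfn (0.983), Stfa3 (0.978), Cst6 (0.974), Krt16 (0.963), Lce1b (0.960), 2310046K23Rik (0.959) and Krt6a (0.957). These r values describe 6 libraries, rest mainly on Vismodegib replicate 3, and are given without a test. Cnfn, cornifelin, an envelope component that was on no list, reached 25.9 RPKM in Vismodegib replicate 3 and 0.516 RPKM in DMSO replicate 3, and was listed at 0 in the other 4. Krt1, the suprabasal partner of Krt10, was at 4.26 and 0.263 RPKM in those libraries and at 0 in the others. Stfa3, a stefin that inhibits cysteine proteases, was at 29.7 RPKM in Vismodegib replicate 3 and 1.56 RPKM in DMSO replicate 3. Cst6, cystatin M/E, an inhibitor of cathepsins in the cornified layer, was at 3.48 RPKM in Vismodegib replicate 3 and at most 0.284 RPKM elsewhere. The likeness of each member to the mean of the other 9 differed as much: r was 0.91 to 0.99 for Calm4, Krtdap, Lor, Lce1a1, Sbsn and Asprv1, 0.69 for Sprr1a, 0.65 for Fam25c, 0.41 for Tgm1 and 0.30 for Ivl. Without Vismodegib replicate 3, r over the other 5 libraries was 0.78 to 0.89 for the first 6 genes, with DMSO replicate 3 as the high library, and between -0.31 and 0.33 for the other 4.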

How the data were processed

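The authors deposited RPKM values for 23381 gene symbols in 6 libraries, 3 DMSO and 3 Vismodegib, grouped by their titles. The submitters' processing notes, per the labels, name mm10 and the tools Partek, SAMtools, HISAT2, STAR, cutadapt and bcl2fastq 2.17. Their order, the gene models and any use of strand were not given in the sources used here. RPKM depends on what the other genes of a library contribute.

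Read totals were estimated from the value of 1 read in 6992 genes with 1 transcript in GENCODE M21. With these totals 83.6% to 85.4% of values up to 20 reads were whole within 0.02 reads. A total too high by a whole-number factor would pass this check. Limits of 3 reads cover counting error only.

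The 11818 genes averaging 0.5 RPKM or more were tested by limma 3.58.1 (R 4.3.3) after a log2(RPKM + 0.5) step (eBayes with a trend, group as the only term, two-sided, Benjamini-Hochberg over all genes tested, threshold 0.05); this scale understates changes of low genes. The steps were tested on simulated data. The members and lists were chosen with earlier results of these data known. Named genes were the 10 members, up to 5 genes of highest mean RPKM per cornification list or locus, and the 10 genes most like the members; other genes, among them the Lce, Sprr2, filaggrin and intestinal genes, were chosen after their values were seen. Lists were matched by symbol. Alternatives covered the pseudocount, the filter, scaling, the eBayes settings, library weights, the replicate block and each library left out.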

Additional observations from a re-analysis of the deposited data

How the results depend on the processing

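No gene passed limma's adjusted threshold of 0.05 in the comparison as reported (266 had an unadjusted p under 0.05), and none of the other cornification genes did. The number passing over all genes became 420 with library weights and 1 with the replicate block, and leaving out each library in turn gave 0 to 19, the 19 without DMSO replicate 1. None of the 19 or the 420 was a member. With library weights 5 other cornification genes passed (Elf3, Klk8, Notch3, Padi3 and Tfap2c); leaving out each library gave 0. The members' median difference became -0.69 with library weights, which limma set at 7.28 for DMSO replicate 3 and 0.461 for Vismodegib replicate 3. The estimation of these weights stopped short of limma's convergence tolerance, so the values with weights are uncertain. With each library left out in turn, the median over all 10 members ranged from -0.29 without Vismodegib replicate 3 to 1.49 without Vismodegib replicate 2. For the 6 members that passed the filter without Vismodegib replicate 3 it was 0.13 when that library was left out. Pseudocounts of 0.1 and 1 and both scalings gave 0.68 to 0.96 over all 10. With weights Krtdap was at -1.47 and Lor at -1.79. Whether the replicate numbers pair the libraries could not be settled with 3 libraries per group. Same-numbered libraries' deviations from their group means correlated at 0.003, 0.04 and -0.31, and differently numbered ones at -0.231 to 0.303. The 1 gene passing with the replicate block was Fam25c, which was chosen with its difference known.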

Other observations

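Genes of small intestine, like most of the cornified genes, were highest in Vismodegib replicate 3, mostly with DMSO replicate 2 second, while for 6 of the 10 members DMSO replicate 3 was second. The 55 small intestine genes summed to 99.9 RPKM in Vismodegib replicate 3 and 33.4 RPKM in DMSO replicate 2, and to 7.55 to 19.4 RPKM in the other 4 libraries. In 27 of them that were at 0.5 RPKM or more, highest in Vismodegib replicate 3 and second in DMSO replicate 2, the ratio of the 2 libraries had a median of 5.11 and ran from 2.15 to 12.0. Besides the absorptive cell genes, the Paneth cell defensin gene Defa24 was at 3.33 RPKM in Vismodegib replicate 3, at 0.959 RPKM in DMSO replicate 2 and at no more than 0.127 RPKM elsewhere. Of the 133 genes at 3 times every other library in Vismodegib replicate 3, 44 had DMSO replicate 2 as the next library and 36 had DMSO replicate 3. The source of either set of transcripts was not tested. The intestinal list was written after its genes were seen among the 133.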
